A study of Mus musculus with 56 samples.

Results

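The meiosis and sperm formation genes described here are 40 mouse genes of a fixed list, each chosen for its place in the making of sperm. They were looked up by symbol in the testis gene table of the study, and all 40 were found among its 15960 genes. They fall into 6 groups: 4 genes of spermatogonia, 11 of meiotic prophase, 6 of the piRNA pathway and other germ cell functions, 6 of spermatid chromatin with its transcriptional regulator, 4 of the acrosome and fertilization, and 9 of the sperm tail and its energy supply. The series holds 56 RNA sequencing samples in 19 groups, from tissues of wild-type (WT) mice, tissues of Fmr1 knockout (KO) mice, and a neuroblastoma cell line. Testis, cortex, hippocampus, cerebellum, liver and muscle gave 3 WT and 3 KO samples each, and these are the groups used here. The labels give tissue and genotype alone, and strain, age and knockout allele are not stated there. Nothing in the labels says whether samples of a group came from separate animals, so a p-value measures the spread between these samples.

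Sperm form in the seminiferous tubules, where stem cells called spermatogonia divide, enter meiosis as spermatocytes and leave it as round spermatids. In meiotic prophase the chromosomes pair along the synaptonemal complex and exchange DNA at programmed breaks. Spermatids then elongate: histones give way to transition proteins and these to protamines, while the acrosome and the tail are built. Fmr1 encodes FMRP, an RNA-binding protein that acts on the translation, transport and splicing of mRNA, and male mice without it are known for enlarged testes.

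The 6 testis libraries held 13752391 to 15879775 counts. Levels within a gene are given in CPM, counts scaled to library size with trimmed-mean (TMM) factors, and levels between genes in TPM, which also accounts for transcript length. Fmr1 itself, which checks the labels, lay at 37.3, 33.9 and 33.1 CPM in WT and at 8.41, 8.85 and 9.58 CPM in KO testis, a log2 fold change of -1.95 ± 0.11 (SE). Every testis library matched its label, and some Fmr1 RNA was still counted in KO testis. A gene was called at an adjusted p under 0.05, by the quasi-likelihood test of edgeR with Benjamini-Hochberg (BH) adjustment over 15465 tested genes. All 40 members passed the filter on low counts.

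Of the 40 members, 6 were called in KO against WT testis, 3 higher and 3 lower. That is 15% of the members, beside 4.27% of all genes tested and 6.19% of the 9322 tested genes with a mean of at least 10 CPM. The members were chosen with earlier results of these data known. Neither this share nor those of the groups below is therefore a test of the list. The 3 that rose were Sycp1, Sycp2 and Hormad1, all proteins of the meiotic chromosome axis or synaptonemal complex. The 3 that fell were Tnp1 and Tnp2, the transition proteins of elongating spermatids, and Prm3, a protamine-related gene in the same cluster as Tnp2. No member of the other 4 groups was called. In bulk tissue, fewer cells of a type and less RNA per cell cannot be told apart.

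Because these 6 genes moved together in 2 sets, the sequence before each start site is shown, taken from the RefSeq promoter table for GRCm38.p6, in which 33 of the 40 members were matched. Each line is up to 250 bases, written 5′ to 3′ on the strand of the gene and ending just before the transcript. Capitals mark any match, on either strand, to TGANGTCA, a cAMP response element of the kind bound by CREM with 1 base left free, to CCTCAG, the core of the motif bound by STRA8, or to CNGTTA, a MYB-type motif.
Sycp1 (chr3:102936101-102936350, minus strand, higher in KO): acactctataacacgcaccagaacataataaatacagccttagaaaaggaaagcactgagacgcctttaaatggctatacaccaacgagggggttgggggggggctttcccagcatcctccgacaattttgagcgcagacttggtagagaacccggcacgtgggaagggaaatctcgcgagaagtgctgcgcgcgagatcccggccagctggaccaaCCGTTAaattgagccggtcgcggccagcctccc
Sycp2 (chr2:178407686-178407908, minus strand, higher in KO): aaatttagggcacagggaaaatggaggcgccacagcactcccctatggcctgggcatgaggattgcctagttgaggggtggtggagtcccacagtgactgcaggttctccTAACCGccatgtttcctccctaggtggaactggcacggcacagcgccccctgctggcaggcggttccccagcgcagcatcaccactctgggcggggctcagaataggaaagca
Hormad1 (chr3:95559427-95559676, plus strand, higher in KO): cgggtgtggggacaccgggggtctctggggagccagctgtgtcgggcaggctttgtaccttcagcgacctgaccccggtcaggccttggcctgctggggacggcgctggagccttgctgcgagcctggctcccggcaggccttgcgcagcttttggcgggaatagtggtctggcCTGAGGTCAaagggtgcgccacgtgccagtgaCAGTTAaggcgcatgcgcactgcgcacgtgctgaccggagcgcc
Tnp1 (chr1:73015910-73016149, minus strand, lower in KO): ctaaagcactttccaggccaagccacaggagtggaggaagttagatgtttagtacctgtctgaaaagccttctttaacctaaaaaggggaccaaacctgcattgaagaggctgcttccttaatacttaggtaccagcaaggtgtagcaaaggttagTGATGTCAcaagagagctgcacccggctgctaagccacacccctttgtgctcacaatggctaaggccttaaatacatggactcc
Tnp2 (chr16:10788661-10788905, minus strand, lower in KO): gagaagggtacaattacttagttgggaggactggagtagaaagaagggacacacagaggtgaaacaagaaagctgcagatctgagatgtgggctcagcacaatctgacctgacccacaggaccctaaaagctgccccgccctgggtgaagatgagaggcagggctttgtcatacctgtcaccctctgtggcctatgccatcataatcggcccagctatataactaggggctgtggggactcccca
Prm3 (chr16:10790915-10791164, minus strand, lower in KO): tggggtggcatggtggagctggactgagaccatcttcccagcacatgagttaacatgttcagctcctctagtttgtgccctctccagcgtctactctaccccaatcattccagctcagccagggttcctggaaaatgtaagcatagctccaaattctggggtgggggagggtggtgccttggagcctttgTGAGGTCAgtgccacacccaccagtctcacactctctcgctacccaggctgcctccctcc

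The MYB-type motif CNGTTA occurred in the windows of Sycp1, Sycp2 and Hormad1, and in none of the windows of Tnp1, Tnp2 and Prm3. It was found in 9 of the 33 matched members and in 19.8% of all 32851 windows of 250 bases. The match lay 27 bases before the RefSeq start of Sycp1, 38 before that of Hormad1 and 134 before that of Sycp2. TGANGTCA was found in 8 of 33 members, Tnp1, Prm3 and Hormad1 among them, and in 7.49% of all windows. In Hormad1 it overlaps the match to CCTCAG, which 6 of 33 members and 22.3% of all windows held. The full cAMP response element TGACGTCA was found in 1 member, Izumo1, and in 1.55% of all windows. The longer STRA8 motif CNCCTCAG was found in Msh5 and Gapdhs and in 6.42% of all windows. TGANGTCA and CNGTTA were added after the sequences had been seen, and a match is a description of letters, not of binding.

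Among the spermatogonial genes, no member was called. Kit encodes the receptor of stem cell factor, which marks differentiating spermatogonia and is also made by Leydig cells. Its levels were 31.95, 30.4 and 24.0 CPM in WT and 25.6, 23.4 and 21.0 CPM in KO testis (log2 fold change -0.31 ± 0.10, edgeR adjusted p 0.0710). WT and KO overlapped because WT 3 lay below KO 1. Zbtb16, a transcription factor of undifferentiated spermatogonia, was at 4.74 ± 1.25 CPM in WT and 3.83 ± 0.45 in KO (mean ± SD, n = 3 each, as throughout), with its highest value in WT 1. Uchl1, a ubiquitin hydrolase, was at 39.8 ± 3.6 and 39.5 ± 4.4 CPM. Gfra1, the receptor part for the stem cell factor GDNF, was at 12.1 ± 0.7 and 13.3 ± 1.2 CPM (adjusted p 0.624).

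In meiotic prophase, 3 of 11 members rose and none fell, beside 2% of all tested genes called higher. The median log2 fold change of the 11 was 0.14, beside -0.0054 for all genes tested, and 10 of the 11 values were above 0. Sycp1 (chromosome 3, 102818499 to 102936100, minus strand) encodes the transverse filament that joins paired chromosomes. It was counted at 258, 227 and 244 CPM in WT and at 267, 318 and 340 CPM in KO testis. All KO libraries lay above all WT libraries, though KO 1 only just so, and the log2 fold change was 0.35 ± 0.07 (edgeR adjusted p 0.00184), or 1.27-fold. A processed pseudogene on chromosome 7, Sycp1-ps1, was also higher, at 7.69 ± 0.95 and 11.3 ± 2.0 CPM (0.55 ± 0.15, edgeR adjusted p 0.0195). How reads were shared between near-identical copies is not given in the sources used here, so reads of the pair may not be told apart.

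Sycp2 (chromosome 2, 178345293 to 178407685, minus strand) encodes a component of the axial element along each chromosome, and its groups did not overlap either. WT values were 389, 372 and 411 CPM and KO values 432, 488 and 495 CPM, a rise of 0.27 ± 0.06 on the log2 scale (edgeR adjusted p 0.00693). Hormad1 (chromosome 3, 95559677 to 95587671, plus strand) encodes a protein that marks chromosome axes that have not yet paired. WT libraries gave 122, 104 and 118 CPM and KO libraries 130, 145 and 148 CPM (0.30 ± 0.07, edgeR adjusted p 0.00660). For all 3 genes KO 1 was the KO library nearest to WT. Sycp3, the partner of SYCP2 in the axial element, was not called. It was at 154 ± 13 and 159 ± 10 CPM (0.04 ± 0.07, edgeR adjusted p 0.787), and its groups overlapped.

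Within single libraries, the ratio of Sycp1 to Sycp3 counts was 1.53 to 1.60 in WT and 1.80, 1.99 and 2.02 in KO. The groups did not overlap, and the exact two-sided permutation p was 0.1, the smallest that 3 against 3 samples allow. Ratios such as this one were picked after the single genes had been seen, and they do not depend on library scaling.

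Of the other prophase genes, Smc1b and Msh4 came nearest to a call. Smc1b, a subunit of meiotic cohesin, was at 303, 309 and 339 CPM in WT and 336, 360 and 378 CPM in KO (0.18 ± 0.06, edgeR adjusted p 0.0958), with WT 3 just above KO 1. Msh4, which stabilises recombination intermediates, was at 18.5 ± 1.9 and 21.8 ± 1.2 CPM without overlap (0.24 ± 0.10, edgeR adjusted p 0.195). Spo11, the enzyme that makes the meiotic breaks, was at 43.7 ± 2.2 and 48.2 ± 4.0 CPM. The log2 fold changes of 4 further members lay within their SE of 0, with Stra8 at 0.03 ± 0.12, Dmc1 -0.05 ± 0.11, Rec8 0.01 ± 0.07 and Msh5 0.02 ± 0.12.

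**Figure D1:**
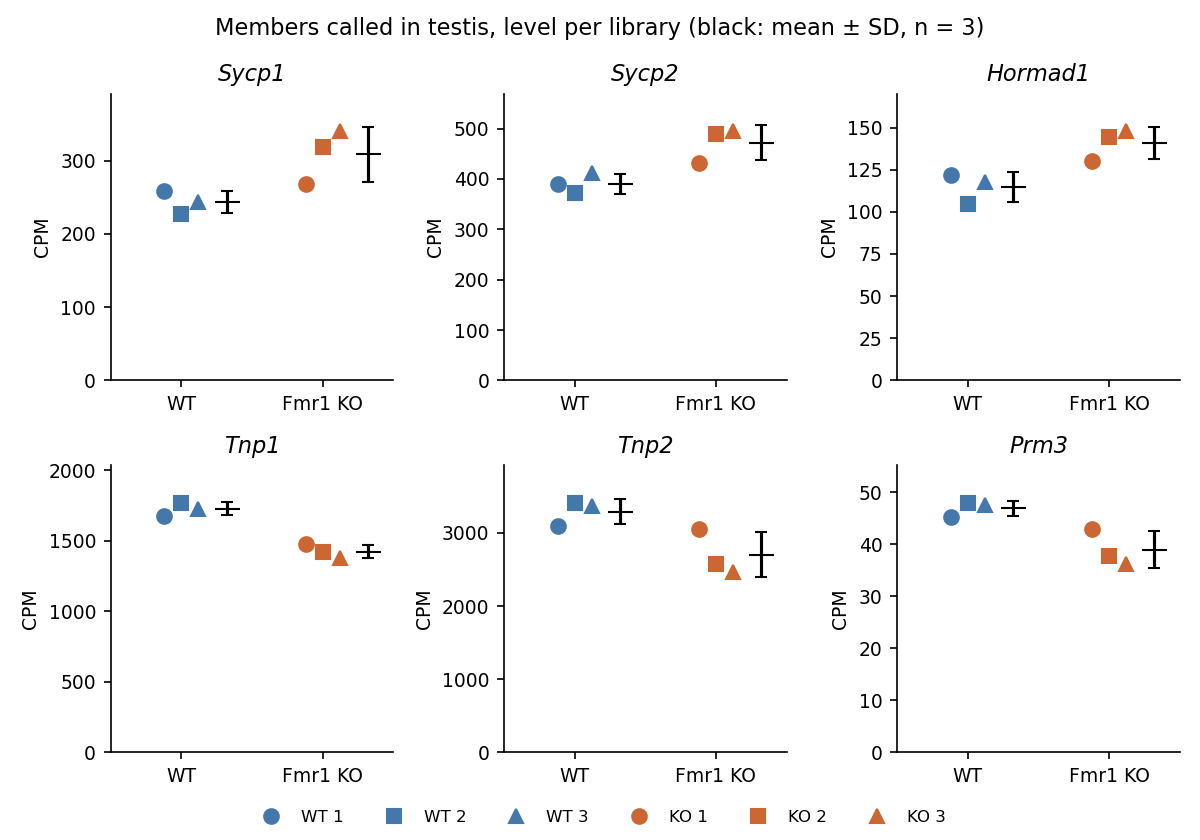
Level of each of the 6 called members in CPM (vertical axes from 0) in 3 WT and 3 Fmr1 KO testis libraries, with marker shape for the replicate number and black bars for the mean ± SD. Sycp1, Sycp2 and Hormad1 are higher and Tnp1, Tnp2 and Prm3 lower in every KO library, and KO 1 is the KO library nearest to WT in each panel.

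The 6 piRNA and germ cell genes were not called, and all 6 log2 fold changes lay between 0.04 and 0.12. Mael, a protein of the nuage that takes part in piRNA production and transposon silencing, was at 1143, 1171 and 1247 CPM in WT. In KO it lay at 1292, 1299 and 1279 CPM, without overlap (0.12 ± 0.06, edgeR adjusted p 0.284). Ddx4, the germ cell helicase also called Vasa, was at 570 ± 20 and 603 ± 22 CPM (0.08 ± 0.06). Piwil1, the pachytene piRNA-binding protein MIWI, was at 415 ± 16 and 444 ± 19 CPM (0.10 ± 0.06), with WT 3 above KO 2. Piwil2 was at 190 ± 8 and 195 ± 8 CPM, Tdrd1, a Tudor-domain scaffold, at 198 ± 7 and 207 ± 13 CPM, and Dazl, an RNA-binding protein of germ cells, at 184 ± 14 and 193 ± 12 CPM.

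Among the 6 genes of spermatid chromatin and its regulator, 3 fell and 3 were not called, beside 2.28% of all tested genes called lower. Tnp1 (chromosome 1, 73015074 to 73015909, minus strand) encodes the first of the transition proteins that replace histones. Its values were 1679, 1771 and 1728 CPM in WT and 1474, 1417 and 1378 CPM in KO testis. The gap between the groups was wider than the range within either, and Tnp1 fell by 0.28 ± 0.06 on the log2 scale (edgeR adjusted p 0.00458), a change of -17.5%. The antisense gene 1700027A15Rik shares exonic bases with Tnp1 on the opposite strand and was also lower, at 163 ± 2 and 133 ± 13 CPM (-0.30 ± 0.07, edgeR adjusted p 0.00458). Whether strand was used in counting the testis reads is not given in the sources used here, so reads of the pair cannot be told apart.

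Tnp2 (chromosome 16, 10787936 to 10788660, minus strand) gave 3096, 3416 and 3370 CPM in WT and 3051, 2578 and 2470 CPM in KO. KO 1 lay just under WT 1, and the log2 fold change was -0.29 ± 0.07 (edgeR adjusted p 0.00923). Prm3 (chromosome 16, 10790505 to 10790914, minus strand) lies in the same cluster and was at 45.2, 48.0 and 47.5 CPM in WT and 42.9, 37.7 and 36.1 CPM in KO. Its groups did not overlap, and its log2 fold change was -0.27 ± 0.08 (edgeR adjusted p 0.0436), near the threshold.

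The protamines themselves, which pack the DNA of mature sperm, were not called. Prm1 (chromosome 16, 10796326 to 10805839) was at 3009 ± 154 CPM in WT and 3073 ± 98 CPM in KO (0.03 ± 0.06, edgeR adjusted p 0.855). Prm2 (chromosome 16, 10791380 to 10796134) was at 3654, 3959 and 4132 CPM in WT and 3885, 4476 and 4338 CPM in KO (0.11 ± 0.07, edgeR adjusted p 0.382). Tnp2, Prm3, Prm2 and Prm1 follow each other on chromosome 16 and are read from the same strand. Within single libraries the ratio of Tnp2 to Prm2 counts was 0.847, 0.863 and 0.815 in WT and 0.785, 0.576 and 0.569 in KO, without overlap. The ratio of Prm3 to Prm2 was 0.0115 to 0.0124 in WT and 0.0083 to 0.0111 in KO. Both ratios were picked after the values had been seen, and the exact two-sided permutation p of 0.1, the smallest that 3 against 3 allow, cannot pass a threshold of 0.05. Crem, whose spermatid form activates genes of this group, was at 198, 203 and 222 CPM in WT and 233, 230 and 224 CPM in KO (0.14 ± 0.06, edgeR adjusted p 0.196), without overlap and with no call.

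**Figure D2:**
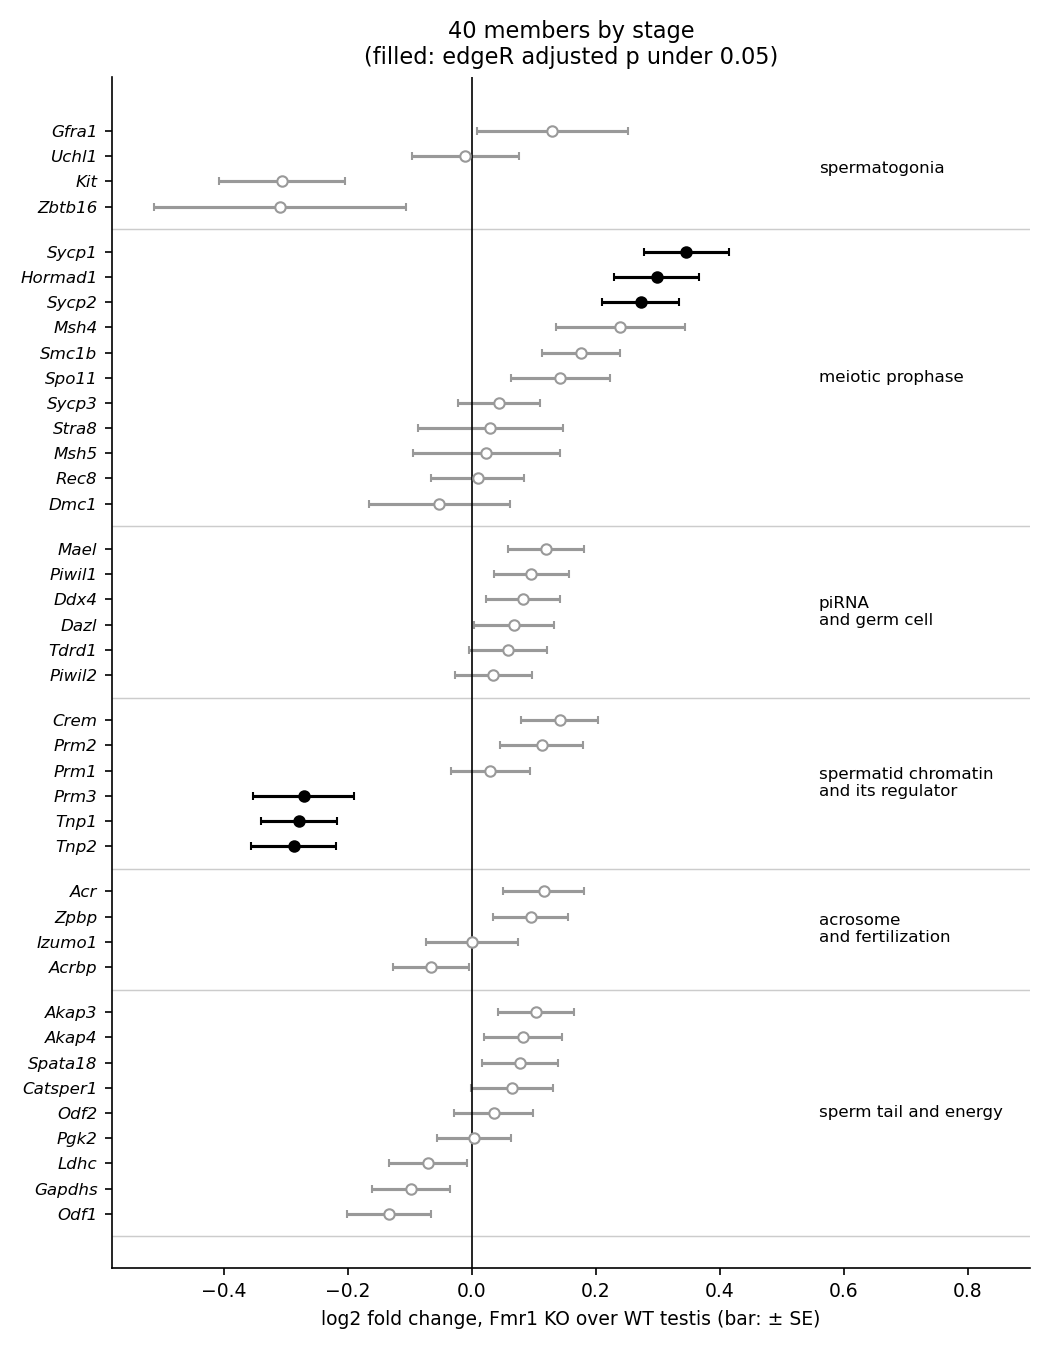
Log2 fold change of Fmr1 KO over WT testis (horizontal axis, bars ± SE, 3 libraries per genotype) for the 40 members, sorted within each of 6 groups, filled where the edgeR adjusted p is under 0.05. The 3 filled points above 0 are in meiotic prophase, the 3 below 0 are in spermatid chromatin, and all 6 piRNA and germ cell points lie above 0 with none filled.

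Acrosome and fertilization genes gave no call in 4 members. Acr, the protease acrosin, was at 201 ± 20 and 218 ± 9 CPM (0.12 ± 0.07, edgeR adjusted p 0.353). Acrbp, which binds its precursor, was at 454 ± 30 and 434 ± 18 CPM (-0.07 ± 0.06). Zpbp, a structural acrosome protein, was at 272 ± 12 and 290 ± 7 CPM (0.10 ± 0.06). Izumo1, the sperm protein that binds the egg, was at 63.7 ± 1.7 and 63.8 ± 5.8 CPM, a log2 difference under its SE of 0.07.

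The 9 genes of the sperm tail and its energy supply were not called either, and their log2 fold changes ran from -0.13 to 0.10. Odf1, a protein of the outer dense fibres, had the largest size of change, at 1579, 1460 and 1594 CPM in WT and 1595, 1306 and 1323 CPM in KO (-0.13 ± 0.07, edgeR adjusted p 0.281). KO 1 was the highest of its 6 libraries. Odf2, also a dense-fibre protein, was at 4022 ± 222 and 4122 ± 124 CPM. The fibrous sheath anchors Akap4 (2769 ± 161 and 2933 ± 82 CPM) and Akap3 (1303 ± 56 and 1401 ± 26 CPM, without overlap, edgeR adjusted p 0.381) were on the higher side in KO. The sperm forms of glycolytic enzymes were level or on the lower side: Gapdhs -0.10 ± 0.06, Ldhc -0.07 ± 0.06 and Pgk2 0.00 ± 0.06 on the log2 scale. Catsper1, a subunit of the sperm calcium channel, was at 140 ± 5 and 147 ± 13 CPM, and Spata18 at 800 ± 50 and 845 ± 21 CPM.

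In all, WT and KO libraries did not overlap for 10 of the 40 members (25%), beside 20.6% of all genes tested. Besides the 6 called genes these were Msh4, Mael, Crem and Akap3, each higher in KO. Over the whole list, the share without overlap was near that background. The median log2 fold change of the 40 was 0.05 and 29 of the 40 values were above 0, beside 7537 of 15465 for all genes tested.

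Levels between the groups of genes differed by orders of magnitude. In WT testis Prm1 was the most abundant member at 28760 ± 1002 TPM. Tnp2 (16910 ± 814), Prm2 (16860 ± 729) and Tnp1 (14360 ± 623 TPM) followed, and Tnp2 and Prm2 did not differ beyond their spread. In KO testis the order was Prm1, Prm2, Tnp2 and Tnp1, with Tnp2 at 13580 ± 1426 and Prm2 at 17940 ± 1467 TPM. The median over the 9 tail and energy genes was 1750 TPM, over the piRNA and germ cell genes 148.7 TPM, over the prophase genes 60.0 TPM and over the spermatogonial genes 7.25 TPM. Sycp3 (287 ± 28 TPM) led the prophase genes, ahead of Smc1b, Hormad1, Sycp1 and Sycp2 at 119 to 138 TPM, and Msh5 was lowest at 8.63 ± 0.30 TPM.

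The libraries were not alike within a genotype. Prophase members summed to 1412, 1324 and 1440 CPM in WT and 1496, 1652 and 1708 CPM in KO, so that KO 1 lay between WT and the other KO libraries. Spermatid chromatin members summed to 11530, 12400 and 12660 CPM in WT and 11680, 11920 and 11490 CPM in KO, with overlap, because Prm1 and Prm2 carry most of the sum. With each library left out in turn, Sycp1 was called in all 6 fits (edgeR adjusted p 3.22e-06 to 0.0477). Without WT 2, KO 2 or KO 3 it was the only member called, and Sycp2, Hormad1, Tnp1 and Tnp2 had adjusted p between 0.0657 and 0.179. Without KO 1, 9 members were called, the 6 and also Kit, Smc1b and Odf1, and without WT 3, 7 were called, with Kit and Smc1b in and Prm3 out. The signs of the 6 called members were the same in every such fit. Prm3 was called without KO 1 and in no other fit of that kind.

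**Figure D3:**
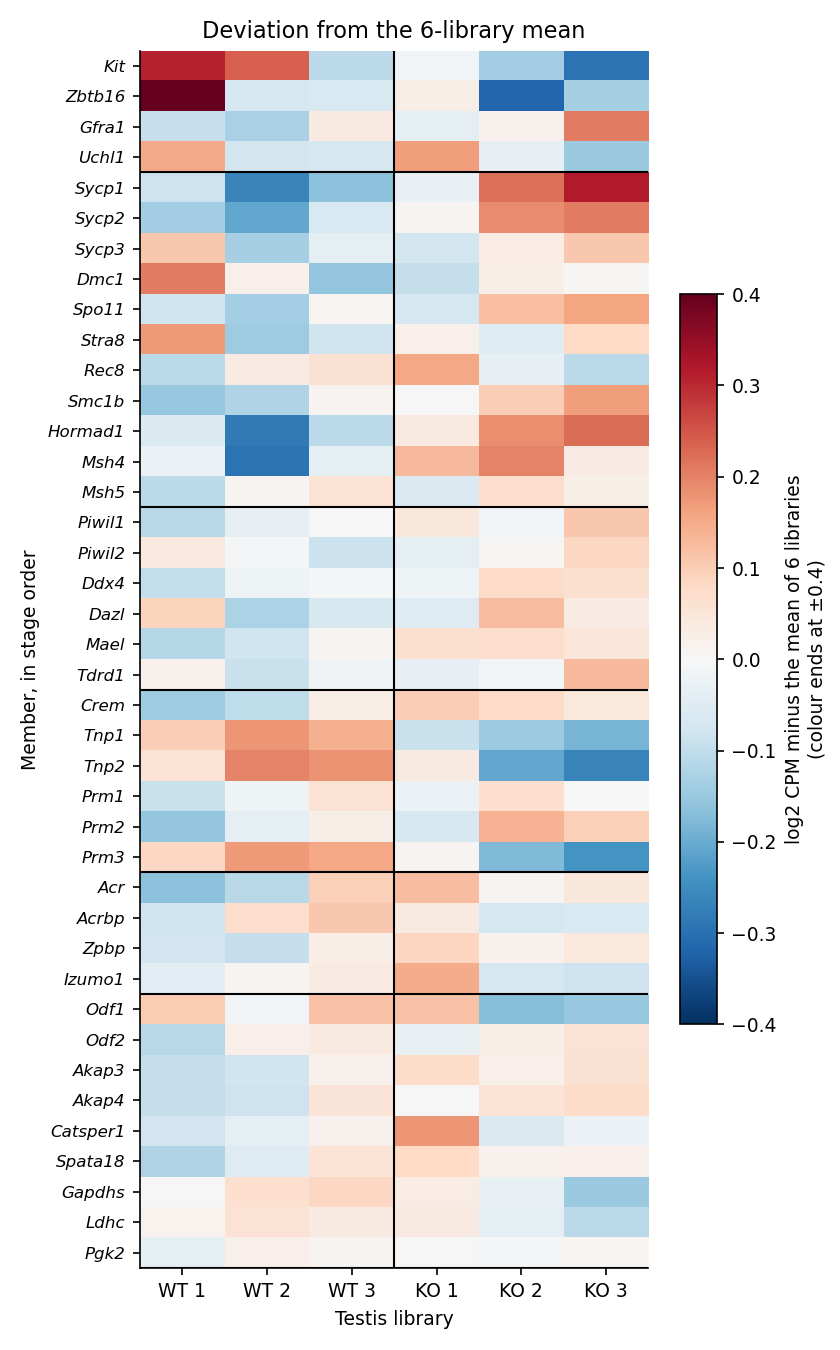
Log2 CPM of each member minus its mean over the 6 testis libraries (colour, ending at ±0.4), with members in stage order down the vertical axis and libraries along the horizontal axis. The rows of Sycp1, Sycp2 and Hormad1 turn from blue in WT to red in KO 2 and KO 3, those of Tnp1, Tnp2 and Prm3 turn from red to blue, and the KO 1 column is pale in most of these rows.

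**Figure D4:**
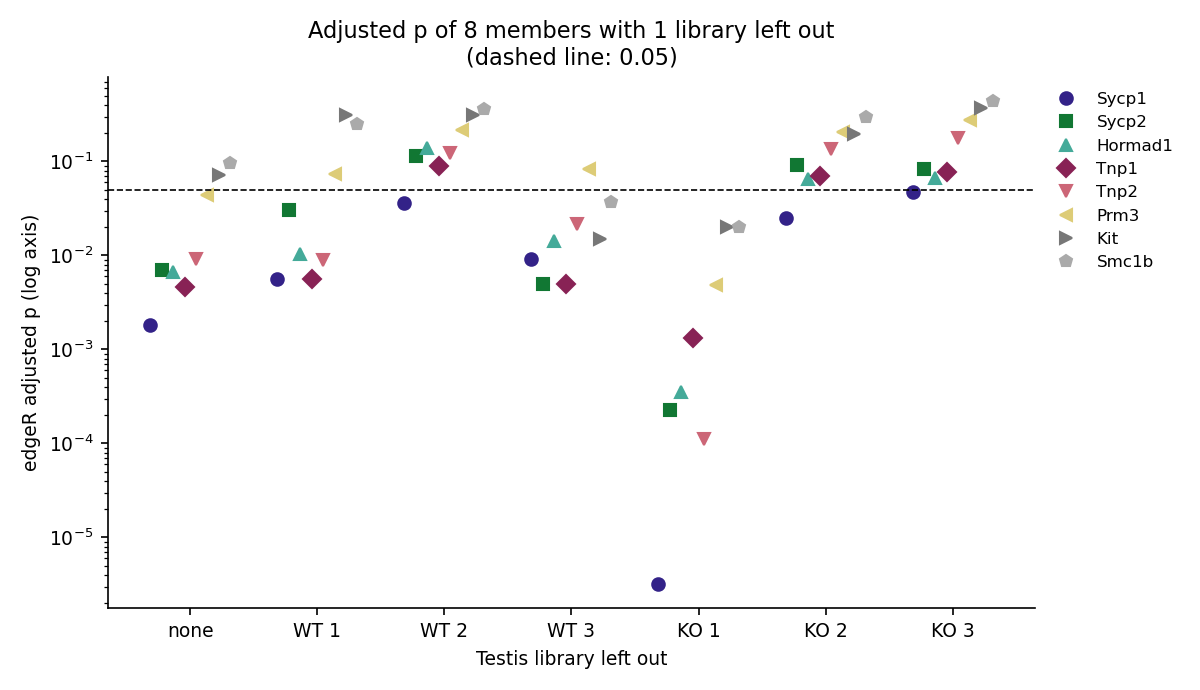
Adjusted p from edgeR (vertical log axis) for 8 members with no library or 1 testis library left out (horizontal axis), with the dashed line at 0.05. Sycp1 stays under the line in every column, and all 8 members are under it without KO 1.

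Some Leydig cell markers were also lower in KO testis. Of 9 such markers, 5 were called lower, namely Hsd3b1, Nr5a1, Insl3, Cyp17a1 and Star, and none higher. The 9 summed to 1214 to 1596 CPM in WT and 1146 to 1180 CPM in KO. Their median log2 fold change was -0.30, and no value was above 0. Of 13 Sertoli cell markers none was called, with sums of 1251 to 1551 CPM in WT and 1127 to 1222 CPM in KO. The median of the 13 was -0.21, and 1 value was above 0. None of the 6 peritubular myoid, 7 macrophage, 6 endothelial and 4 red blood cell markers tested was called, and of 8 epididymis markers 1 was listed, at 3.32 to 5.51 CPM. Both somatic sums were highest in WT 1, and without WT 1 the 5 members Sycp1, Sycp2, Hormad1, Tnp1 and Tnp2 were still called (Prm3 adjusted p 0.0735). The part of these markers in the member results was not tested.

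A further 156 genes of the same 6 themes, none of them members, were counted for comparison, of which 139 were tested. Of these, 10 were called (7.19%), 8 higher and 2 lower. That share is near the 6.19% of genes with a mean of at least 10 CPM, so the calls named here describe single genes and say nothing of a theme. In meiotic prophase 4 of 36 rose and none fell. They were Ccdc155, the protein KASH5 that ties telomeres to the cytoskeleton (66.5 ± 2.6 and 83.2 ± 2.1 CPM, 0.32 ± 0.07, edgeR adjusted p 0.00344), Cntd1 (0.26 ± 0.07) and Hfm1 (0.28 ± 0.07), which act in crossover formation, and Tex15 (0.25 ± 0.07), named after its value was seen. The median of the 36 was 0.08. In the spermatid chromatin theme 1 of 12 fell, the kinase gene Tssk6, at 359, 374 and 371 CPM in WT and 368, 283 and 255 CPM in KO (-0.29 ± 0.08, edgeR adjusted p 0.0192), with overlap through KO 1.

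In the piRNA theme Rnf17, a Tudor-domain protein, rose by 0.20 ± 0.06 as the only call of 17 (edgeR adjusted p 0.0490). Zpbp2 (0.26 ± 0.07) and Capza3 (0.20 ± 0.06) rose among 23 acrosome and sperm head genes. Cox8c, a testis form of a cytochrome oxidase subunit, fell as the only call of 35 tail and energy genes. Its values were 176, 179 and 163 CPM in WT and 150, 103 and 111 CPM in KO (-0.51 ± 0.08, edgeR adjusted p 7.70e-05). In the spermatogonial theme Etv5, a transcription factor of stem spermatogonia that Sertoli cells also make, was the only call of 16, rising from 17.6 ± 1.8 to 25.1 ± 1.2 CPM (0.51 ± 0.10, edgeR adjusted p 0.00193).

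The other tissues show where else the members are transcribed. Of the 40, 18 were listed in no other tissue table, among them Spo11, Stra8, Hormad1, Mael, Tnp1, Tnp2, Prm1, Prm2, Prm3, Ldhc and Pgk2. Testis, liver, muscle and brain had separate tables, with cortex, hippocampus and cerebellum together in that of brain. Brain libraries were poly(A)-enriched with another kit, so levels across tissues are a description. Uchl1, an abundant neuronal protein, was at 1033 ± 64 TPM in WT cortex and 1058 ± 68 TPM in WT hippocampus, beside 71.9 ± 7.8 TPM in testis. Kit was higher in WT cerebellum (157 ± 5 TPM) than in testis (9.70 ± 1.61 TPM). Odf2, a centrosome protein outside sperm, was at 160 ± 5 TPM in cerebellum and 3111 ± 117 TPM in testis. Gfra1 reached 52.4 ± 9.8 TPM in liver and 4.81 ± 0.23 TPM in testis.

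Meiotic genes had low or no counts outside testis, with exceptions in cerebellum. Sycp1 was at 23.6, 20.3 and 27.5 CPM in WT and 24.2, 27.1 and 25.1 CPM in KO cerebellum, or 19.8 ± 3.3 TPM in WT, and did not differ by genotype beyond its spread (0.09 ± 0.10, edgeR adjusted p 0.855). Rec8, the meiotic cohesin subunit, was at 36.9 ± 1.6 TPM in WT cerebellum, 3.18 ± 1.36 TPM in cortex and 2.87 ± 0.75 TPM in hippocampus. Dazl was at 6.36 ± 1.23 TPM in WT cortex and 4.95 ± 0.33 TPM in hippocampus. Ddx4 was at 3.60 ± 0.74 TPM in WT cortex, 5.27 ± 1.51 in hippocampus and 1.35 ± 0.30 in cerebellum.

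Members of later stages were counted outside testis as well. Crem was listed in all 5 other tissues, from 14.03 ± 4.44 TPM in WT muscle to 28.22 ± 9.22 TPM in WT liver, with the brain regions between them. Acrbp was highest in cerebellum (13.1 ± 0.9 TPM in WT), followed by cortex (6.197 ± 1.758) and hippocampus (5.04 ± 0.31), and was at 2.49 ± 1.52 TPM in liver and 1.45 ± 0.39 TPM in muscle. Spata18 was at 4.24 ± 1.45 TPM in WT hippocampus and 1.70 ± 0.32 in cerebellum. Zpbp was at 1.04 ± 0.36 TPM in WT cortex and 1.25 ± 0.44 in cerebellum. In WT, Sycp2 in the 3 brain regions, Tdrd1 in hippocampus and Piwil2 in cerebellum and muscle had a mean above 1 CPM but under 1 TPM.

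**Figure D5:**
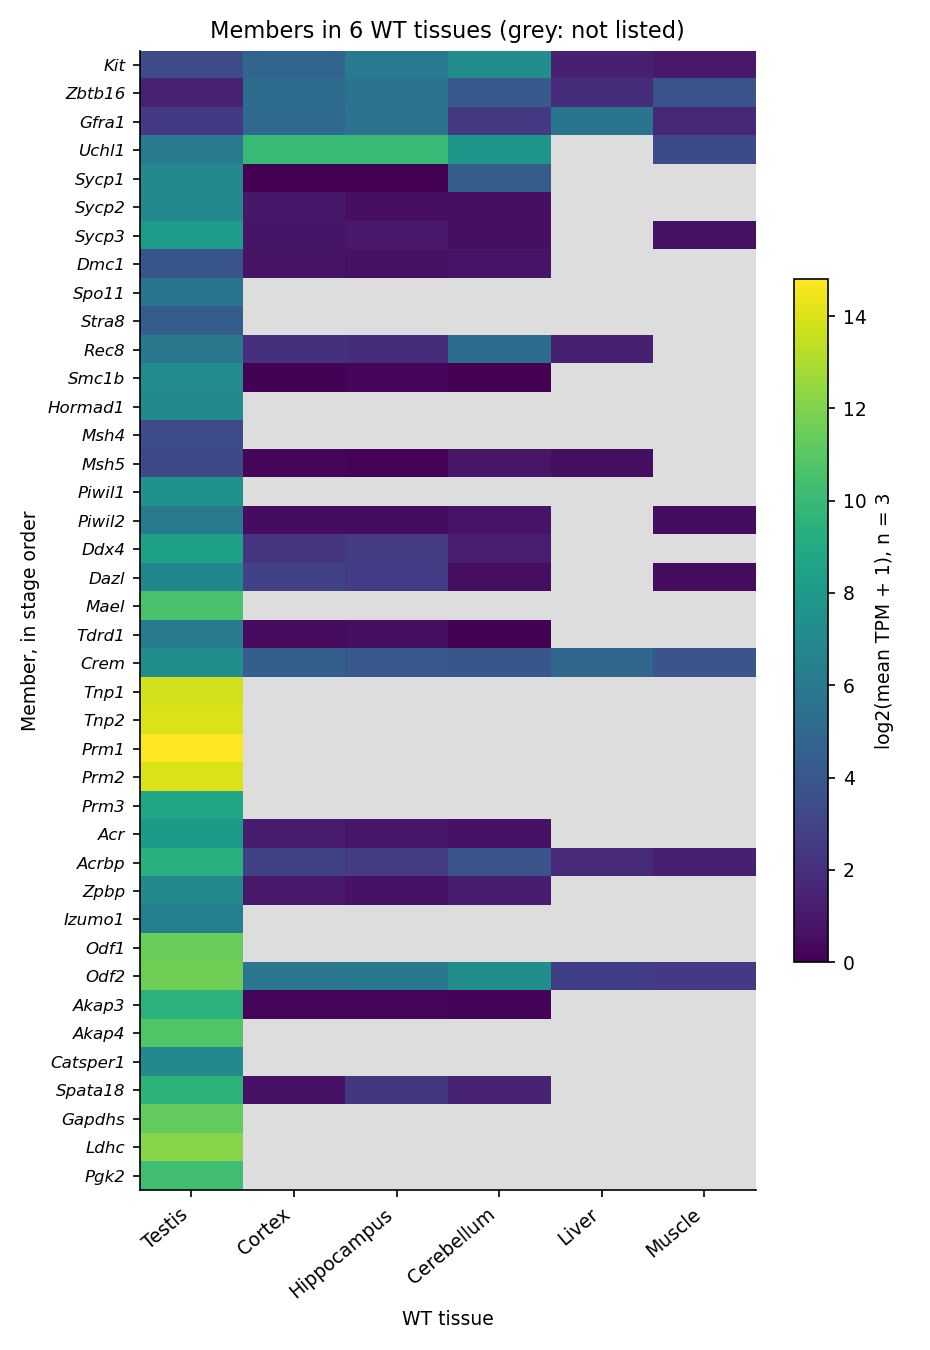
Mean level of each member in WT tissue as log2(TPM + 1) (colour, 3 libraries per tissue), with members in stage order down the vertical axis, tissues along the horizontal axis and grey for a gene not listed in the table of that tissue. Transition proteins and protamines are listed in testis alone, Uchl1 is brightest in cortex and hippocampus, and Sycp1 and Rec8 stand out in cerebellum among the brain regions.

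Between genotypes, 1 member was called outside testis. In cerebellum 1 of 17 tested members was called, beside 0.226% of all genes: Zbtb16 was at 35.9, 29.1 and 32.3 CPM in WT and 21.2, 19.7 and 13.7 CPM in KO. The groups were well apart, and it fell by 0.84 ± 0.13 on the log2 scale (edgeR adjusted p 0.0299). The call was lost without WT 1, WT 2, KO 1 or KO 2 (adjusted p 0.0507 to 0.121). Values on the same side, not called, were seen for Zbtb16 in hippocampus, at 94.4 ± 7.3 and 81.6 ± 4.4 CPM without overlap (-0.21 ± 0.07, edgeR adjusted p 0.279), and in cortex, at 79.9, 76.0 and 51.8 CPM in WT and 51.5, 54.7 and 50.2 CPM in KO (-0.41 ± 0.14, edgeR adjusted p 0.157). In cortex it was called by DESeq2 (adjusted p 0.0307) and without WT 3 (adjusted p 0.0197). In muscle (0.21 ± 0.17) and liver (1.28 ± 0.56, edgeR adjusted p 0.430) its difference had the other sign and overlapped, and whether the effect differs between tissues was not tested.

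No member was called by edgeR in cortex (18 tested, 0.0203% of all genes called), hippocampus (17 tested, 0.209%), liver (8 tested, 0.411%) or muscle (9 tested, 4.04%). At an unadjusted p under 0.05 there were 5 of 18 members in cortex, beside 21% of all genes tested there, and 2 of 17 in hippocampus, beside 12.5%. There were 4 of 8 in liver, beside 11.4%, and 1 of 9 in muscle, beside 25.9%. With so few members tested, nothing is read from these shares. DESeq2 called none of them in hippocampus, liver or muscle. The liver values with the smallest p were Crem, at 23.4, 35.7 and 41.7 CPM in WT and 19.1, 23.2 and 18.8 CPM in KO (-0.72 ± 0.21, edgeR adjusted p 0.226), and Gfra1, at 150 ± 23 and 207 ± 15 CPM (0.47 ± 0.14, edgeR adjusted p 0.242). Without WT 1 Crem was called in liver (adjusted p 0.0103), and without WT 2 Gfra1 was called in muscle (adjusted p 0.0460).

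Splicing of the members was read from the deposited junction counts of rMATS, in which the 6 testis libraries form 2 sets. The tables do not say which set is KO, so no direction is given. Skipped exons of members numbered 217 in 31 genes, and 197 reached 20 junction reads per library on average. None passed a quasi-binomial retest at an adjusted p under 0.05 with an inclusion difference of at least 0.1, beside 0.0873% of all 17176 exons retested. There were 18 member exons at an unadjusted p under 0.05 (9.14%), near the 10.3% of all exons retested, and the smallest adjusted p was 0.119.

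By the FDR of rMATS in the authors' deposited table, with the same minimum difference, 1 of the 217 exons was called (0.461%), beside 0.69% of all exons listed. This was a 63-base exon of Msh5, a partner of MSH4 (chromosome 17, 35038406 to 35038468, minus strand, GRCm38). Its inclusion was 83.7%, 86.4% and 87.0% in set 1 and 96.5%, 100% and 100% in set 2. Skipping rested on 4, 3 and 2 reads in set 1 and on 1, 0 and 0 in set 2 (FDR 0.0232 in the authors' deposited table, retest adjusted p 0.299).

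Of 8 alternative donor sites in members, 1 was called in the authors' deposited table, beside 3.15% of all such events. It lies in Kit (chromosome 5, plus strand), where the exon from 75638965 ends at 75639146 or 12 bases further on, at 75639158. The longer form had 0 reads in each library of set 1 and 3 in each of set 2, beside 4 to 14 reads of the shorter form (FDR 0.000695 in the authors' deposited table). With so few reads the difference rests on 9 reads in all. Of 10 alternative acceptor sites none was called, beside 2.09%. Of 53 mutually exclusive exon pairs 3 were called, in Ddx4, Mael and Zpbp, which is 5.66% beside 7.75% of all pairs. The largest of these in reads was Mael, at 46.7%, 37.3% and 38.1% inclusion in set 1 and 51.8%, 53.7% and 49.5% in set 2 (FDR 0.000202 in the authors' deposited table). Listed as skipped exons, both Mael exons had 99.9% to 100% inclusion in each library, and both Ddx4 exons at least 99.6%. For these pairs the percentages weigh junction reads of 1 exon against the other. They do not mean that transcripts lack 1 of them. Other event types were not retested.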

How the data were processed

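Bulk RNA sequencing of testis and 5 other tissues was used, with 3 WT and 3 Fmr1 KO samples per tissue, grouped by the sample titles. Per the file headers, the authors deposited read counts per gene and TPM values for each library, with log2 fold changes and adjusted p-values of their own. The submitters' processing notes name FastQC 0.11.8, Trimmomatic 0.39, Bowtie2 2.3.5, STAR 2.6.1, RSEM 1.3.1, DESeq2 1.16.1 and the builds GRCm38 and mm10, without roles. Splicing tables were the authors' deposited junction-count output of rMATS, whose version is not given in the sources used here. The muscle table held 4 further columns of per-sample values that match no sample's labels and were not used.

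Each tissue was tested alone with edgeR 4.0.16 (R 4.3.3, filterByExpr, TMM, quasi-likelihood F test, BH adjustment over all tested genes). CPM used the TMM-scaled library size. In the authors' deposited table, an adjusted p under 0.05 was listed for 5 members and none at all for Zbtb16, and its log2 fold changes differed from those of edgeR by at most 0.003. Skipped exons were retested with a quasi-binomial model whose dispersion was moderated with limma 3.58.1. Both scripts were tested on simulated data. Locations are from GENCODE M21 (GRCm38), counted from 1. Tables were handled with data.table (version 1.17.8) and pandas (version 2.3.3), and plots were made in Python 3.11.15 with matplotlib 3.10.9.

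Every member is described. Called members are given in full, with at least 2 uncalled members per group (highest mean, smallest p), up to 3 called genes of each comparison list, members called or above 1 CPM in another tissue, and called splicing events. The members and lists were chosen with earlier results of these data known. Alternatives were DESeq2 size factors, no TMM factor, no low-count filter, DESeq2 1.42.0, each library left out, and a replicate block, and for splicing a lower read minimum (10), no minimum difference and the deposited call.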

Additional observations from a re-analysis of the deposited data

Results flagged for a closer look

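Crem lay higher in every KO library of testis (log2 difference 0.14) and lower in every KO library of liver (-0.72), with no call in either tissue, and the difference between the tissues was not tested. Gfra1 lay lower in every KO library of hippocampus (-0.18) and higher in every KO library of liver (0.47) and of muscle (0.72). It was called in none of the 3 tissues, and the difference between them was not tested. Its CPM values were 77.4, 76.8 and 89.4 in WT and 72.3, 75.6 and 67.8 in KO hippocampus, and 6.94 ± 2.58 in WT and 11.45 ± 0.66 in KO muscle (mean ± SD, n = 3). Odf2 lay lower in every KO library of liver (-0.53) and higher in every KO library of muscle (0.26), with no call. Again the difference between the tissues was not tested. With 3 libraries a group, values that do not overlap are common: they were seen in 20.6% of the genes tested in testis.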

How the results depend on the processing

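The 6 called members of testis numbered 6 with DESeq2 size factors, with total counts and without the low-count filter. DESeq2 and the replicate block gave 5, without Prm3 (adjusted p 0.0542 and 0.0819). With 1 library left out the count was 1 to 9. Same-numbered WT and KO libraries did not deviate together (correlations -0.044, 0 and -0.01). These values gave no sign of a pairing but cannot exclude one. All testis calls numbered 661, with 481 by DESeq2, 377 under the replicate block and 173 to 1256 with 1 library left out. The other germ cell genes gave 10, with 6 under the replicate block and 3 to 20 with 1 library left out. Members called outside testis were 1 in cortex by DESeq2, and with 1 library left out 0 to 1 in cortex, cerebellum, liver and muscle. The 197 member exons retested gave 0 calls under the replicate block, and the deposited rMATS call gave 1.

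Under some alternative, 11 uncalled members near 0 changed sign, in 22 values (member by alternative) and never with an adjusted p under 0.05. Log2 fold changes with 1 library left out ran from -0.0974 to 0.0662 for Uchl1, -0.0085 to 0.1119 for Sycp3, -0.1371 to 0.0433 for Dmc1, -0.0309 to 0.1299 for Stra8, -0.0666 to 0.0668 for Rec8 and -0.0205 to 0.0571 for Msh5. They ran from -0.0057 to 0.0665 for Prm1, -0.0754 to 0.0426 for Izumo1, -0.0093 to 0.0612 for Odf2, -0.0090 to 0.1105 for Catsper1 and -0.0124 to 0.0177 for Pgk2. With total counts Rec8 was -0.0093, Izumo1 -0.0195 and Pgk2 -0.0151, and under the replicate block Izumo1 was -0.0021. The cause of these shifts was not tested. The called members differed by 1.21-fold to 1.27-fold where higher and fell by 17.1% to 18.1% where lower, with a biological coefficient of variation of 6.23% among libraries.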
